A study of Mus musculus with 9 samples.

Results

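The 10 genes followed here are known as macrophage markers: *C1qa*, *C1qb*, *C1qc*, *Csf1r*, *Aif1*, *Cx3cr1*, *Mrc1*, *Fcer1g*, *Tyrobp* and *Adgre1*. Whether other cells in these libraries express them too was not tested. They are 10 of the 55450 genes in the count files, were taken by symbol from a list of macrophage markers chosen with earlier results of these data known, and all 10 were among the 19371 tested genes, those with 5 or more counts on average. The study sequenced RNA of mice of mixed 129Sv/c57BL6J background, and both stages share that background. The embryo group is made up of 7 embryos at e13.5, from which Rathke's pouch was taken, each of genotype *Sox2* Egfp/+, which carries a green fluorescent protein at the *Sox2* gene. The adult group is the pituitary of 2 mice at postnatal week 8 with the posterior lobe removed, and no transgene is given for it. The methods state 2 male and 5 female embryos and an adult of each sex, but sex is not given for single libraries and was not used. Tissue was dissected and not sorted, so each library mixes the cells of the pouch or gland with any blood, vessel and connective tissue cells it held.

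Macrophages are resident immune cells that clear dead cells and debris, and in the embryo the first of them come from the yolk sac and settle in most organs as these form. They depend on the growth factor receptor encoded by *Csf1r* and on the transcription factor PU.1, encoded by *Spi1*, and they are a main source of C1q, the molecule that starts the classical complement cascade. In the pituitary they lie among the hormone cells and along the vessels of the gland, and the microglia of the adjoining brain express most of the same genes.

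Read pairs counted on genes numbered 16738863 in the smallest embryo library and 28537311 in the largest, with a median of 24687556, and 36421545 and 31191117 in adults 1 and 2. The unit of all levels is CPM, the count divided by the effective library size from edgeR's TMM scaling. At these depths the 10 genes had between 66 counts (*Mrc1*) and 2482 counts (*Csf1r*) in a library, so each was measured in every library. A level of 3 counts, taken as the floor of detection, lay between 0.0963 and 0.220 CPM in the embryos and at 0.0727 and 0.0843 CPM in the adults. Floors cover counting error only, because copies made by PCR were not told apart. Embryos 1 and 4 stood apart before any comparison: 59.7% and 62.8% of their read pairs fell on genes, whereas this share was 73.9% to 80.0% for the remaining embryos, 84.0% for adult 1 and 83.7% for adult 2. Their erythroid genes summed to 180574 and 225659 CPM, whereas the other embryos had 6451 to 20063 CPM. Without both of them the same number of macrophage markers, 4, had an adjusted p below 0.05 as with them.

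The first comparison asks how the macrophage markers of the pouch compare with those of the adult gland. A gene was called different when edgeR's quasi-likelihood test gave a Benjamini-Hochberg adjusted p below 0.05 over all 19371 genes and the fold change was above 4, the thresholds of the study. By this rule 0 of the 10 markers were called, while 5001 of all tested genes (25.8%) were, 11.3% higher in the embryo and 14.6% higher in the adult. DESeq2 also called 0, and 4 of the 10 had an unadjusted p below 0.05 in edgeR. With the threshold on adjusted p alone, 4 markers passed, all higher in the embryo: *Fcer1g*, *Tyrobp*, *Aif1* and *C1qb*. That number was 0 without adult 1 and 2 without adult 2, and none of these 4 passed after a correction for exonic length and GC content, described further on. Among all tested genes, without the correction, 51.4% passed on adjusted p, 24.0% higher in the embryo and 27.4% higher in the adult. Every embryo lay above both adults for 3 of the 10 (*Fcer1g*, *Tyrobp* and *Aif1*), against 26.2% of all tested genes in that direction and 59.1% in either, and no marker had every embryo below both adults. The median log2 fold change of embryo over adult was 0.58 for the 10 markers and −0.04 for all tested genes. These p-values measure spread between single animals, and the adult spread rests on 2 of them. In bulk tissue, fewer macrophages and less RNA per macrophage cannot be told apart. Scaling by library size alone shifted the median of all genes to −0.26, and under that scaling *Fcer1g* and *Tyrobp* passed while *C1qb* (adjusted p = 0.119) and *Aif1* (adjusted p = 0.101) did not.

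**Figure D1:**
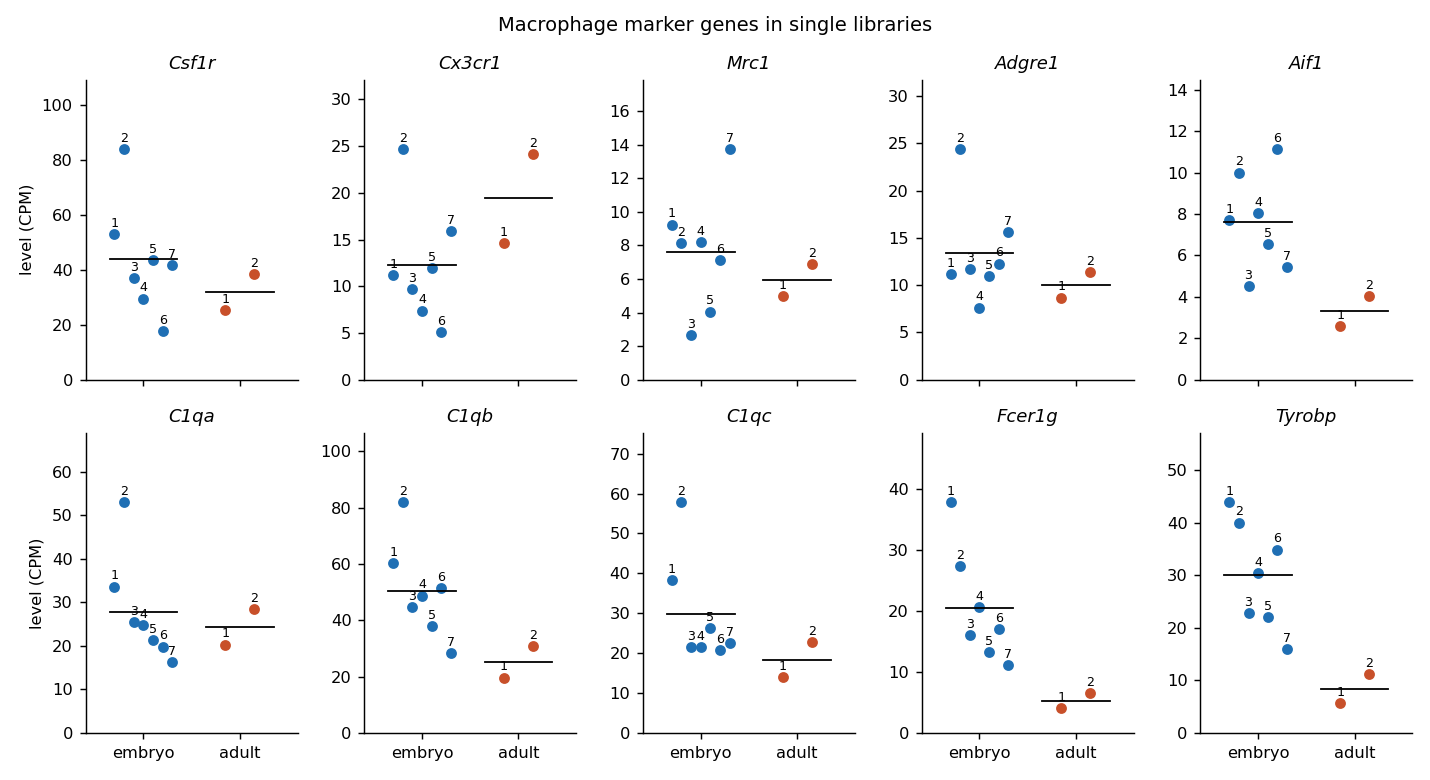
Level of each of the 10 macrophage marker genes in every library, in CPM on a linear axis that starts at 0, with 1 panel per gene. Numbered dots are single animals and the line is the mean of the 7 embryos or the 2 adults. Embryo 2 is the highest embryo for 6 of the genes, and adult 2 lies above adult 1 for all 10.

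The C1q genes encode the 3 chains that together form C1q, which binds antibody complexes and dying cells. They lie side by side on the minus strand of chromosome 4 within 18675 bp of GRCm38: *C1qb* (ENSMUSG00000036905.8) from 136880129 to 136886187, *C1qc* (ENSMUSG00000036896.5) from 136889804 to 136893065 and *C1qa* (ENSMUSG00000036887.5) from 136895917 to 136898803. Gaps of 3616 and 2851 bp separate them, and no other annotated gene overlaps any of them.

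*C1qa* stood at 16.3, 24.8 and 53.0 CPM in its lowest, median and highest embryo, and at 20.3 and 28.5 CPM in adults 1 and 2. Both adults fell inside the range of the embryos, and embryo 2 stood above every other library. The log2 fold change, embryo over adult, was 0.19 (SE, the standard error of the log2 value, 0.39, edgeR adjusted p = 0.711), and its sign depended on single libraries: it was −0.05 without embryo 2 and −0.06 without adult 1, and −0.05 when libraries were scaled by size alone. With the length and GC correction it was −1.12 (adjusted p = 0.00867), a pass in the other direction. *C1qb* had 28.5, 48.8 and 82.0 CPM in the embryos and 19.6 and 30.8 CPM in the adults. All embryos lay above adult 1, and 6 of 7 lay above adult 2, the exception being embryo 7. Its fold change of 2.01 (log2 SE 0.37, edgeR adjusted p = 0.0350) passed on adjusted p. That pass was lost without adult 1 (log2 fold change 0.70, adjusted p = 0.302) and without adult 2 (log2 fold change 1.35, adjusted p = 0.0664), and adjusted p over the libraries left out in turn ran from 0.0129 to 0.302. With the length and GC correction the log2 fold change turned to −0.32 (adjusted p = 0.337). *C1qc* had 20.7, 22.5 and 57.8 CPM in the embryos and 14 and 22.7 CPM in the adults. Adult 1 was the lowest of the 9 libraries, whereas adult 2 lay within the range of the embryos, 5 of which had 20.7 to 26.3 CPM. The log2 fold change of *C1qc* was 0.70 (SE 0.42, edgeR adjusted p = 0.172), from 0.37 without adult 1 to 1.08 without adult 2, and turned to −0.10 with the length and GC correction.

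The balance of the chains was compared as well, a comparison chosen after the values were seen and given without a test. The ratio of *C1qb* to *C1qa* was 1.55 to 2.60 in the embryos (median 1.78), against 0.967 and 1.08 in the adults. The ratio of *C1qc* to *C1qa* was 0.848 to 1.38 in the embryos (median 1.09), against 0.691 and 0.797 in the adults. In both ratios all embryos lay above both adults. Of single tested genes 59.1% had stages that did not overlap, and how often ratios of other genes do so was not tested. After the correction for length and GC content, the ratio of *C1qb* to *C1qa* was 1.57 to 2.48 over the embryos and 0.989 to 1.08 over the adults, and that of *C1qc* to *C1qa* was 0.884 to 1.44 over the embryos and 0.539 to 0.603 over the adults. The ratio of *C1qb* to *C1qc* overlapped between stages, with 1.27 to 2.48 in the embryos, against 1.40 and 1.36 in the adults. The deposited counts are per gene and hold no isoforms.

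Upstream sequence is shown because macrophage genes are known targets of PU.1, a factor that binds purine-rich DNA. RefSeq promoter windows were found for 6 of the 10 markers (*C1qb*, *C1qc*, *Cx3cr1*, *Mrc1*, *Fcer1g* and *Aif1*), while *C1qa*, *Csf1r*, *Tyrobp* and *Adgre1* were not in the table. The 250 bases before each RefSeq start were searched on both strands for GAGGAA, the core of the site that PU.1 is known to bind. It occurred in 4 of these 6 windows and in 7639 of all 32851 windows of the same length (23.3%). The 4 windows that hold it follow, 5′ to 3′ on the strand of the gene, with the motif or its reverse complement in capitals: *C1qb* at chr4:136886201-136886450 (minus strand), *C1qc* at chr4:136892915-136893164 (minus strand), *Mrc1* at chr2:14229164-14229413 (plus strand) and *Aif1* at chr17:35176053-35176302 (minus strand), all in GRCm38.p6.
C1qb: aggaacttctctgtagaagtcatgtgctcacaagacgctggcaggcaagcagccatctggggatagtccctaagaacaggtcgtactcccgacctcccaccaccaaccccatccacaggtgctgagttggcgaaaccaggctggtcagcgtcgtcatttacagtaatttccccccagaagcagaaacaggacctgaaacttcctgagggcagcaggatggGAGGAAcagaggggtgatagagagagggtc
C1qc: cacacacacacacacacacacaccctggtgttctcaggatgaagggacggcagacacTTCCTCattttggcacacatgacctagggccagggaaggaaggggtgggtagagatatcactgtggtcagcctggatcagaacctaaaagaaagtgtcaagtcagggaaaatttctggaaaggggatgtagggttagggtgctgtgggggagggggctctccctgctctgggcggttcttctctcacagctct
Mrc1: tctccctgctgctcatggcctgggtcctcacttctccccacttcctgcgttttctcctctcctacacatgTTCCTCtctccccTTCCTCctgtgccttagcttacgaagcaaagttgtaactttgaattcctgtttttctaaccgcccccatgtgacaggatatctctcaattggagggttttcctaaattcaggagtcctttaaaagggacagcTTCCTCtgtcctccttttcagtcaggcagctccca
Aif1: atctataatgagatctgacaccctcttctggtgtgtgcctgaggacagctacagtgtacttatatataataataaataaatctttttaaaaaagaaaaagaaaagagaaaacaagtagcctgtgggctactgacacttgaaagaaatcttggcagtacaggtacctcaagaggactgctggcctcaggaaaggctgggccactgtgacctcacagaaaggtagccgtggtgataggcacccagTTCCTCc
The motif began 30 bases before the start in *C1qb*, 193 in *C1qc* and 7 in *Aif1*, and *Mrc1* held it 3 times, at 180, 167 and 35 bases. The *C1qc*, *Mrc1* and *Aif1* windows reach into the genes as Ensembl annotates them, since RefSeq places the starts elsewhere. *Cx3cr1* and *Fcer1g* held no match, which says only that these letters are absent from their windows. *Spi1* itself had 3.98, 5.81 and 13.6 CPM in its lowest, median and highest embryo, the highest being embryo 2, and 2.96 and 3.63 CPM in the adults. Its log2 fold change of 0.96 (SE 0.50) did not pass, with an adjusted p of 0.120 by edgeR, although every embryo lay above both adults.

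*Fcer1g* and *Tyrobp* encode small membrane adaptors that carry an activation motif inside the cell, *Fcer1g* for Fc receptors and *Tyrobp* for receptors such as *Trem2*. These were the markers with the widest separation of the stages. *Fcer1g* (ENSMUSG00000058715.11, chromosome 1, 171229572 to 171234365) had 11.1, 17.1 and 37.9 CPM in its lowest, median and highest embryo, against 4.05 and 6.52 CPM in the adults. Every embryo lay above both adults, with embryo 1 highest and embryo 7 lowest. The fold change was 3.87 (log2 1.95, SE 0.48, edgeR adjusted p = 0.00403), just short of the threshold of 4. *Tyrobp* (ENSMUSG00000030579.10, chromosome 7, 30413760 to 30417585) had 15.9, 30.5 and 44.0 CPM in the embryos and 5.65 and 11.2 CPM in the adults. Again no embryo reached down to either adult, and embryos 1 and 7 were the extremes. Its fold change was 3.55 (log2 1.83, SE 0.44, edgeR adjusted p = 0.00311). The choice of adult decided the call: without adult 1 neither gene passed (*Fcer1g* 1.63, adjusted p = 0.0688; *Tyrobp* 1.40, adjusted p = 0.0704), and without adult 2 both were called, with log2 fold changes of 2.32 (adjusted p = 0.0211) and 2.39 (adjusted p = 0.00992). In these fits the lone adult is assumed to vary like the embryos. *Fcer1g* was also called when embryo 3, 5, 6 or 7 was left out, at log2 fold changes of 2.05, 2.04, 2.03 and 2.06. Over all 9 libraries left out in turn, adjusted p ran from 0.00228 to 0.0688 for *Fcer1g* and from 0.00127 to 0.0704 for *Tyrobp*. The length and GC correction moved both further, to 0.46 (adjusted p = 0.379) and 0.03 (adjusted p = 0.937). The ratio of *Tyrobp* to *Fcer1g* was 1.16 to 2.04 in the embryos, against 1.40 and 1.72 in the adults, so the stages overlapped in the balance of the adaptors.

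The partners of these adaptors were followed as 11 receptors and kinases, of which 0 were called. On adjusted p below 0.05, 3 passed with higher levels in the embryo and 1 with higher levels in the adult. Over all tested genes 25.8% were called, and 24.0% and 27.4% passed in these directions. The list was not tested against these shares. *Trem2*, a lipid-sensing receptor that signals through *Tyrobp*, had 4.88, 7.27 and 19.2 CPM in its lowest, median and highest embryo and 1.28 and 3.80 CPM in the adults. All embryos were above both adults for *Trem2*, and its log2 fold change was 1.85 (SE 0.61, edgeR adjusted p = 0.0208), with 1.25 (adjusted p = 0.212) without adult 1 and 2.82 (adjusted p = 0.0229) without adult 2. *Syk*, the kinase that binds the phosphorylated adaptors, had a log2 fold change of 1.74 (adjusted p = 0.00586 by edgeR), and *Fcgr3*, an Fc receptor that needs *Fcer1g*, one of 1.39 (adjusted p = 0.0234). Without adult 1 neither passed (adjusted p = 0.103 and 0.275), and without adult 2 both were called with log2 fold changes of 2.27 and 2.28, as was *Trem2*. After the correction for length and GC content *Syk* was called, at 2.44, and *Fcgr3* did not pass (0.65, adjusted p = 0.247). *Sirpa*, an inhibitory receptor and the most abundant gene of this list, was higher in the adult, with a log2 fold change of −1.06 (adjusted p = 0.00635 by edgeR). Without adult 1 it was −1.02 and did not pass. The median of the list was 0.21.

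*Csf1r* (ENSMUSG00000024621.16) encodes the receptor through which macrophages survive and divide. It had 17.6, 41.7 and 83.9 CPM in its lowest, median and highest embryo and 25.4 and 38.5 CPM in adults 1 and 2. Both adults lay within the range of the embryos, from embryo 6 at the bottom to embryo 2 at the top. The log2 fold change was 0.45 (SE 0.44, edgeR adjusted p = 0.405). The gene overlaps *Hmgxb3* on the opposite strand and *Mir6983* on its own strand, but shares no exonic base with another gene on its own strand. The strand-specific count of *Csf1r* was used. Its ligands are the cytokines *Csf1* and *Il34*, which bind the same receptor. *Csf1* had 3.39, 8.77 and 12.8 CPM in the embryos and 14.3 and 15.5 CPM in the adults. Every embryo lay below both adults, yet the log2 fold change of −0.79 (SE 0.39, edgeR adjusted p = 0.102) did not pass. *Il34* was low in both stages, with 0.141 to 1.47 CPM in the embryos and 1.38 and 2.14 CPM in the adults.

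*Cx3cr1* (ENSMUSG00000052336.7, chromosome 9, 119901616 to 120069879) encodes the receptor for fractalkine, a chemokine held on cell surfaces. The gene overlaps 9 annotated genes, 3 of them on its own strand, and shares no exonic base with another gene on that strand. It was the marker with a higher mean in the adult, at 5.10, 11.2 and 24.7 CPM in the lowest, median and highest embryo and 14.7 and 24.2 CPM in the adults. Embryos 2 and 7 lay above adult 1, and embryo 2 above adult 2 as well, so the stages overlapped. The log2 fold change was −0.66 (SE 0.45, edgeR adjusted p = 0.240), and it was negative under every alternative, from −0.99 to −0.07. Its ligand *Cx3cl1* was called higher in the adult, from 14.7, 18.1 and 31.4 CPM in the embryos to 124 and 150 CPM. Every embryo lay below both adults for the ligand, and its log2 fold change was −2.78 (SE 0.28, edgeR adjusted p = 3.99e-06). The list of ligands, 4 genes in all, had 1 called higher in the adult (*Cx3cl1*), as were 14.6% of all tested genes, and a median of −1.0. *Tgfb1*, a cytokine that microglia depend on, had a log2 fold change of 1.50 (adjusted p = 0.0424 by edgeR). This did not pass without embryo 2 (1.23, adjusted p = 0.0571) or without embryos 1 and 4 (1.35, adjusted p = 0.0550). Without adult 1 the log2 fold change was 1.64 and without adult 2 it was 1.34, and neither passed.

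*Mrc1* (ENSMUSG00000026712.3, chromosome 2, 14229392 to 14332057) encodes the mannose receptor, which takes up sugar-coated molecules and is high in macrophages along vessels. It had 2.68, 8.14 and 13.7 CPM in its lowest, median and highest embryo and 4.97 and 6.86 CPM in the adults. Embryos 3 and 5 lay below both adults and the other embryos above both. The log2 fold change was 0.36 (SE 0.51, edgeR adjusted p = 0.574), and 1.29 (adjusted p = 0.0345) with the length and GC correction. *Adgre1* (ENSMUSG00000004730.15, chromosome 17, 57358691 to 57483527) encodes F4/80, an adhesion receptor long used to stain mouse macrophages. It had 7.62, 11.7 and 24.4 CPM in the embryos and 8.68 and 11.4 CPM in the adults. Embryo 4 was below both adults and embryo 2 above every other library, and the log2 fold change was 0.42 (SE 0.40, edgeR adjusted p = 0.397). The ratio of *Mrc1* to *Cx3cr1* was 0.277 to 1.40 in the embryos, against 0.339 and 0.284 in the adults. Single embryos therefore differed in this ratio more than the stages did, although after the correction for length and GC content every embryo lay above both adults (0.442 to 1.41, against a range of 0.168 to 0.212 over the adults).

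*Aif1* (ENSMUSG00000024397.14, chromosome 17, 35170991 to 35176068) encodes Iba1, a calcium-binding protein of the cytoskeleton. It had 4.51, 7.69 and 11.1 CPM in its lowest, median and highest embryo and 2.59 and 4.05 CPM in the adults. All embryos lay above both adults, embryo 3 by the smallest margin. The log2 fold change was 1.20 (SE 0.44, edgeR adjusted p = 0.0352). It did not pass without embryo 2 (1.12, adjusted p = 0.0529), adult 1 (0.89, adjusted p = 0.273) or adult 2 (1.54, adjusted p = 0.0827), and over the libraries left out in turn its adjusted p ran from 0.0197 to 0.273. It also missed the threshold when no genes were filtered out (adjusted p = 0.0603) and with the length and GC correction (0.21, adjusted p = 0.653).

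**Figure D2:**
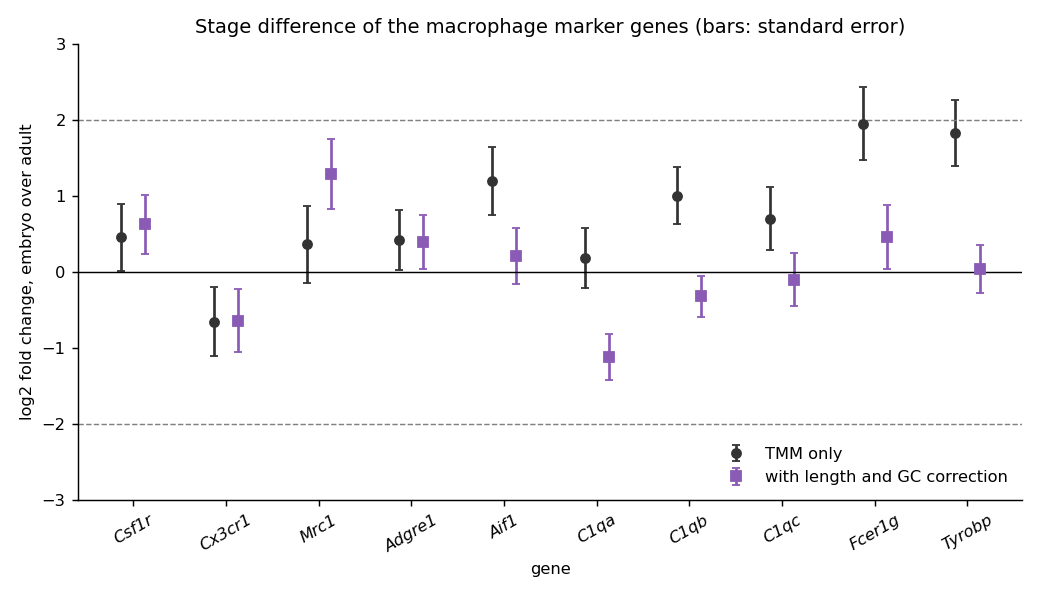
Log2 fold change of embryo over adult for the 10 macrophage marker genes, with bars of 1 standard error, after TMM scaling alone (circles) and with a further correction for exonic length and GC content (squares). Dashed lines mark a fold of 4. *Fcer1g* (1.95) and *Tyrobp* (1.83) lie nearest the line without the correction and at 0.46 and 0.03 with it.

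Across all tested genes the stage difference fell with exonic length, and a trend within the 10 markers was not tested. When the tested genes were split into 10 equal bins by exonic length, the median log2 fold change went from 1.5 in the bin of the shortest (median 630 bp) to −1.31 in that of the longest (median 11596 bp). *Tyrobp* (667 bp) and *Fcer1g* (874 bp) fell in the shortest bin, and their log2 fold changes lay 0.33 and 0.46 above its median. Of the 4 markers that passed on adjusted p, the other two, *C1qb* (1088 bp) and *Aif1* (1532 bp), fell in the next bin, 0.14 and 0.33 above a median of 0.87. *C1qa* (1040 bp), in the same bin, lay −0.68 from that median. The long members *Csf1r* (5774 bp) and *Mrc1* (6371 bp) lay 0.94 and 0.84 above the median of their bin, which was −0.48.

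**Figure D3:**
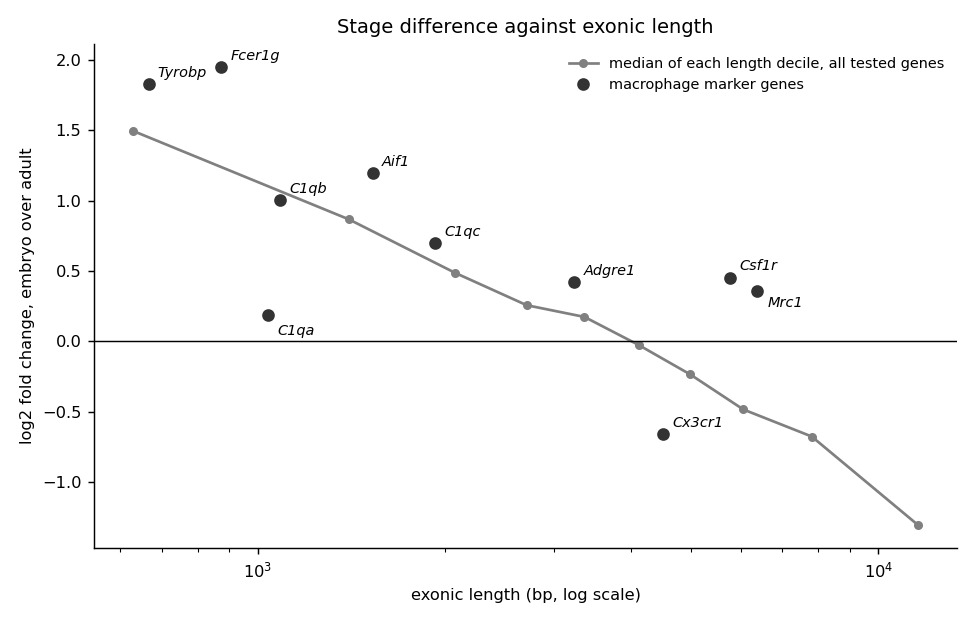
Log2 fold change of embryo over adult against exonic length in bp on a log axis. Black points are the 10 macrophage marker genes, and the grey line joins the medians of all tested genes in 10 bins of length, from 1.5 to −1.31. *Tyrobp* and *Fcer1g* are the shortest markers and have the highest fold changes, and *Csf1r* and *Mrc1* lie above the grey line at its long end.

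When each library was corrected for exonic length and GC content, none of these 4 passed: log2 fold changes were 0.46 for *Fcer1g* (adjusted p = 0.379 by edgeR), 0.03 for *Tyrobp* (adjusted p = 0.937), 0.21 for *Aif1* (adjusted p = 0.653) and −0.32 for *C1qb* (adjusted p = 0.337). With the correction 2 other markers had an adjusted p below 0.05. *C1qa* was higher in the adult, with a log2 fold change of −1.12 (SE 0.30, edgeR adjusted p = 0.00867), and *Mrc1* was higher in the embryo, with 1.29 (SE 0.46, adjusted p = 0.0345). Among all tested genes 25.6% were then higher in the embryo and 24.1% in the adult by the same rule. Across all alternatives adjusted p ran from 7.46e-04 to 1 for *C1qa* and from 0.0345 to 1 for *Mrc1*. The upper ends came from the test against a fold of 4, which asks another question than the test of any difference. In the main edgeR test adjusted p was 0.711 and 0.574. The median log2 fold change became 0.12 for the markers and 0.05 for all genes. *Cx3cr1* (−0.64), *Adgre1* (0.39) and *Csf1r* (0.62) stayed within 1 standard error of their uncorrected values. Short and long transcripts as a whole differed between the stages, so for the short markers stage and transcript length cannot be told apart, and the source of the trend was not tested.

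Levels of different markers were compared per kb of exonic length. In the embryos the order of mean CPM per kb was *C1qb* (46.4), *Tyrobp* (45.0), *C1qa* (26.7), *Fcer1g* (23.4), *C1qc* (15.4), *Csf1r* (7.57), *Aif1* (4.98), *Adgre1* (4.14), *Cx3cr1* (2.72) and *Mrc1* (1.19). The gap to the next gene exceeded the larger standard deviation of the pair after *Tyrobp*, *C1qc* and *Cx3cr1*, and the other neighbours did not differ beyond their spread between embryos. In the adults the order in CPM per kb was *C1qa* (23.4), *C1qb* (23.1), *Tyrobp* (12.7), *C1qc* (9.50), *Fcer1g* (6.05), *Csf1r* (5.54), *Cx3cr1* (4.31), *Adgre1* (3.10), *Aif1* (2.17) and *Mrc1* (0.928). There the gaps after *C1qb*, *C1qc*, *Adgre1* and *Aif1* exceeded the spread between the adults. *Mrc1* thus came last in both stages, while the third gene lay within the spread of the fourth in both. By mean CPM among the 19371 tested genes, *C1qb* ranked 3663 in the embryo, the highest rank of the 10, and *Csf1r* ranked 5832 in the adult. *Mrc1* ranked 10391 in the embryo and *Aif1* 12919 in the adult, the lowest of the 10.

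The second comparison is between single libraries. Embryo 2 was the highest embryo for 6 of the 10 markers: *C1qa*, *C1qb*, *C1qc*, *Csf1r*, *Cx3cr1* and *Adgre1*. Among all tested genes embryo 2 was highest for 14.5%. Relative to the median of the other embryos its level was 2.63 times as high for *C1qc*, 2.30 for *C1qa*, 2.37 for *Cx3cr1*, 2.13 for *Csf1r* and *Adgre1*, 1.75 for *C1qb*, 1.66 for *Fcer1g*, 1.50 for *Tyrobp*, 1.40 for *Aif1* and 1.06 for *Mrc1*. Embryo 1 was highest for *Fcer1g* and *Tyrobp*, embryo 6 for *Aif1* and embryo 7 for *Mrc1*. The lowest values fell in embryo 7 for *C1qa*, *C1qb*, *Fcer1g* and *Tyrobp*, in embryo 6 for *C1qc*, *Csf1r* and *Cx3cr1*, in embryo 3 for *Mrc1* and *Aif1*, and in embryo 4 for *Adgre1*. The highest embryo exceeded the lowest by 2.47 times (*Aif1*) to 5.12 times (*Mrc1*), and the standard deviation between embryos was 31.2% (*Aif1*) to 52.7% (*Cx3cr1*) of the mean. Summed over the 10 markers, embryo 7 had the lowest level (187 CPM), the median was 198 CPM and embryo 2 had the highest (411 CPM), with embryo 1 next at 306 CPM. The adults summed to 120 and 185 CPM, so adult 2 came within a few CPM of embryo 7.

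Embryo 2 also stood out in gene lists of other cells. Its 10 endothelial genes summed to 872 CPM, against 279 to 496 CPM in the other embryos and 214 and 138 CPM in the adults. In embryo 2, *Pecam1* and *Cdh5*, which define endothelium, were at 133 and 121 CPM. The most abundant endothelial gene was *Cldn5* over the embryos and *Plvap* over the adults, 3 of the 10 genes were called higher in the embryo (6 without adult 1), and no gene of the list was at 0. Its 10 genes of neurons and the posterior lobe summed to 344 CPM, with *Tubb3* most abundant, against 94.1 to 189 CPM in the other embryos and 108 and 88.7 CPM in the adults. Of these, 2 were called higher in the embryo and 4 in the adult. The shares over all tested genes were 11.3% and 14.6%, and neither the endothelial nor the neural list was tested against them. Endothelial and neural RNA was thus high in the same library as the macrophage markers, and their part in the result was not tested.

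The adults differed from each other in one direction for every marker. Adult 2 was above adult 1 for 10 of 10, by 1.32 times (*Adgre1*) to 1.99 times (*Tyrobp*), whereas 46.0% of all tested genes had adult 2 above adult 1. A list of 9 neutrophil genes moved with this difference, with a sum of 2.84 CPM in adult 1 and 242 CPM in adult 2. *S100a8*, its most abundant gene, had 1.12 and 71.9 CPM, and *Ly6g*, *Camp* and *Elane* were at 0 in adult 1. In the embryos the neutrophil genes summed to 0.879, 6.68 and 40.6 CPM in the lowest, median and highest library. Of the 9 genes 4 were called higher in the adult, 7 without adult 1, 0 without adult 2, 1 or 2 without embryo 3, 4, 6 or 7, and 8 after the correction for length and GC content. A list of 6 monocyte genes summed to 7.10 CPM for adult 1, to 47.0 CPM for adult 2, and to 9.23, 24.0 and 70.2 CPM in the lowest, median and highest embryo, the highest being embryo 2. *Plac8* was its most abundant gene in both stages, and *Chil3* was at 0 in every embryo and had 0.145 and 17.7 CPM in the adults. Of these genes 3 were called higher in the adult, and 0 without adult 2. Over all tested genes 14.6% were called higher in the adult, and neither the neutrophil nor the monocyte list was tested against that share. Neutrophil and monocyte RNA was thus higher in the adult whose macrophage markers were higher. Leukocyte, lymphocyte and erythroid sums were also higher in adult 2, at 1.92, 2.05 and 2.59 times those of adult 1. Mast cell, endothelial and mesenchymal sums were lower, at 0.746, 0.645 and 0.645 times. The part of any of these in the difference between the adults was not tested.

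**Figure D4:**
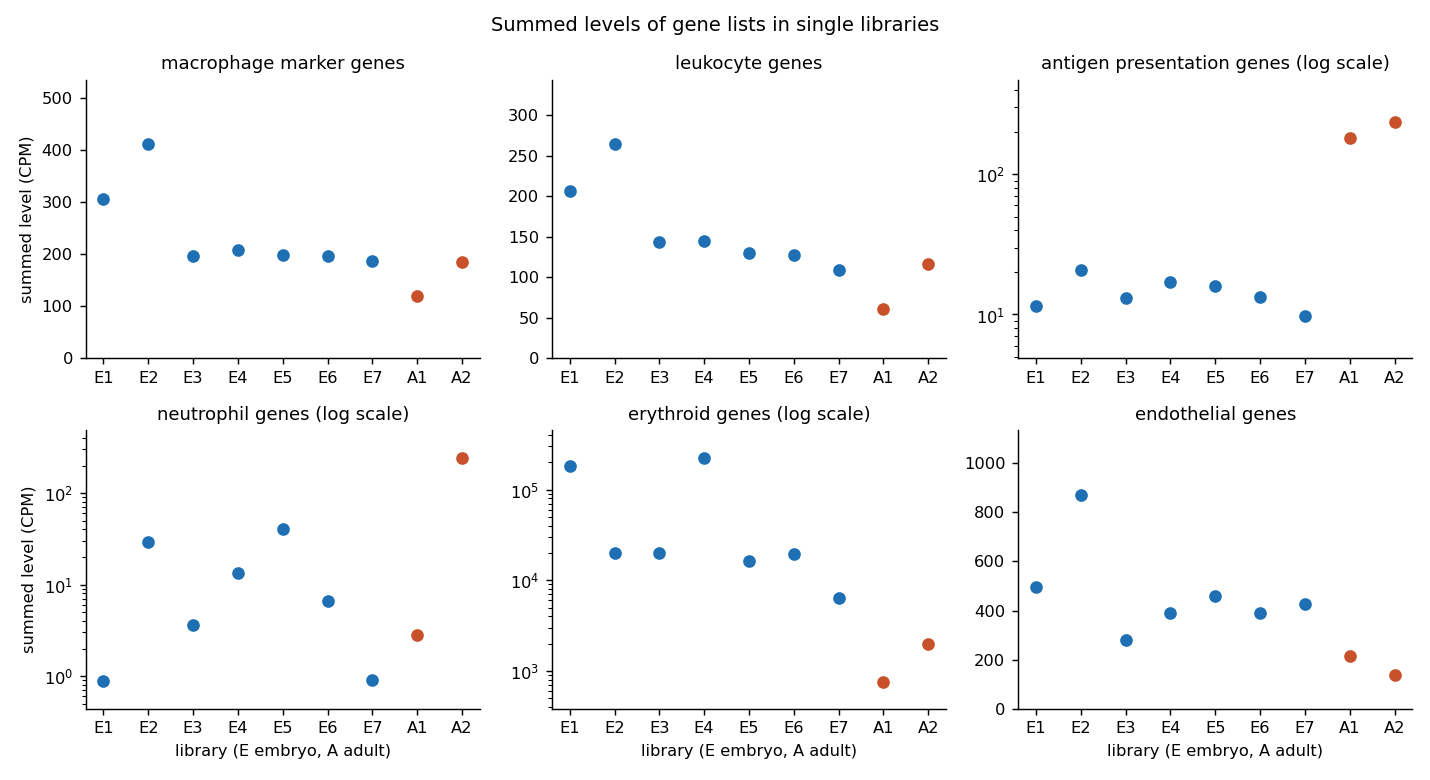
Summed level in CPM of 6 gene lists in each of the 9 libraries, E for embryo and A for adult, on linear axes from 0 for macrophage markers, leukocyte and endothelial genes and on log axes for the others. Macrophage markers (411 CPM), leukocyte genes and endothelial genes (872 CPM) peak in embryo 2, neutrophil genes are highest in adult 2 (242 CPM), and antigen presentation genes are above 100 CPM in the adults alone.

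Whether the markers vary together was asked over the 7 embryos, with Pearson's r and Spearman's rho on log2 CPM for all 45 pairs. The median r was 0.40, single pairs ran from −0.16 to 0.93, and 40 pairs were above 0. No pair had an adjusted Pearson p below 0.05 (0 of 45, with 8 below 0.05 unadjusted, exact permutation of all 5040 orders), and 3 pairs had an adjusted Spearman p below 0.05. *C1qc* and *Csf1r* ranked the embryos identically, with a rho of 1 (exact permutation p = 3.97e-04, the smallest possible, adjusted p = 0.0179), and r was 0.85 (exact p = 0.00853, adjusted p = 0.0768). *C1qb* and *Tyrobp* had a rho of 0.96 (exact permutation p = 0.00278, adjusted p = 0.0417) and an r of 0.92 (exact p = 0.00337, adjusted p = 0.0603). *Fcer1g* and *Tyrobp* had the same rho and an r of 0.91 (exact permutation p = 0.00357, adjusted p = 0.0603). Here and for the pairs that follow, r was also taken without the 2 embryos farthest from the median of the first gene named. The second gene did not enter that choice. For these 3 pairs r was then 0.68, 0.95 and 0.87.

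The growth factor receptor and the chemokine receptor, *Csf1r* and *Cx3cr1*, had the highest r of all pairs, 0.93 (exact permutation p = 0.00536, adjusted p = 0.0603), with a rho of 0.86 (exact p = 0.0238, adjusted p = 0.179) and an r of 0.65 without the 2 farthest embryos. For the neighbours *C1qa* and *C1qb* r was 0.91 (exact permutation p = 0.00456, adjusted p = 0.0603), rho 0.75 (exact p = 0.0663, adjusted p = 0.373) and r without the 2 farthest embryos 0.63. Much of the shared variation came with embryo 2: without it the median r over the 45 pairs was 0.18 and 29 pairs were above 0. Leaving out embryo 6 raised the median r to 0.65 and leaving out embryo 7 raised it to 0.62. After the correction for length and GC content it was 0.71 and all 45 pairs were above 0.

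**Figure D5:**
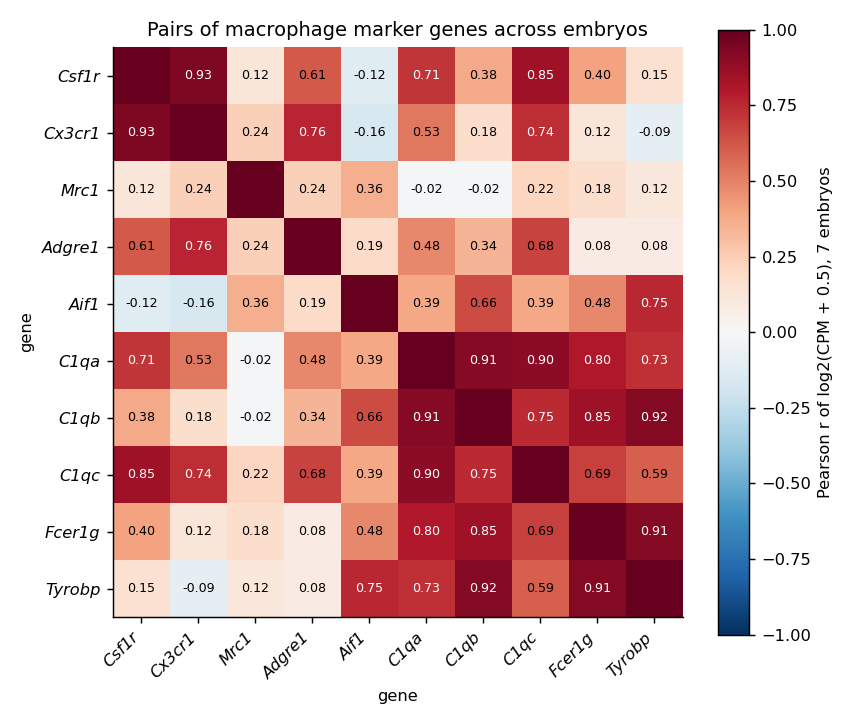
Pearson's r between each pair of the 10 macrophage marker genes over the 7 embryos, on log2 CPM, with colour and number giving r. *Csf1r* and *Cx3cr1* (0.93) and *C1qb* and *Tyrobp* (0.92) are the closest pairs, and the 5 pairs below 0 involve *Mrc1*, *Aif1* or *Cx3cr1*.

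Outside the gene lists, the 5 genes whose levels over the 7 embryos were most like the mean of the standardised markers, of 13063 searched, were *Larp6* (r = 0.978), *Irak2* (0.971), *Igfbp4* (0.967), *Nova2* (0.966) and *Drp2* (0.966). Each was highest in embryo 2, and the likeness was the basis of the choice, so no p is given. Their stage differences went in both directions. *Igfbp4*, a binding protein of insulin-like growth factors, was called higher in the embryo with a log2 fold change of 3.03 (adjusted p = 1.21e-04 by edgeR), and *Nova2*, a splicing regulator of neurons, was called higher in the adult with −2.42 (adjusted p = 1.43e-04), which was −1.83 and no longer called after the correction for length and GC content. *Irak2*, a kinase of interleukin-1 signalling, had −1.88 (adjusted p = 5.92e-04) and was called without embryo 2 (−2.02) and without adult 1 (−2.11). *Larp6* (−0.84, adjusted p = 0.0550) passed on adjusted p without embryo 2 (−0.97, adjusted p = 0.0261) and after that correction (−1.41, adjusted p = 0.00130), and *Drp2* (0.37) turned to −0.16 without adult 1.

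Other genes of the myeloid lineage were counted in whole lists. Among all tested genes 11.3% were called higher in the embryo and 14.6% in the adult. Neither these lists nor those that follow were tested against these shares. Of 11 myeloid transcription factors 1 was called, *Maf*, which macrophages share with many other cells, at a log2 fold change of 3.03 (adjusted p = 3.25e-04 by edgeR). *Maf* had 33.9, 57.0 and 138 CPM in its lowest, median and highest embryo and 6.52 and 10.6 CPM in the adults. *Cebpb* had a log2 fold change of −1.80 (adjusted p = 0.00308), which was −2.33 and called without adult 1 and −1.02 (adjusted p = 0.205) without adult 2, and −2.40 and called after the length and GC correction. Of 14 genes of tissue-resident macrophages 13 were tested, and 3 were called higher in the embryo (*Pf4*, *Lyve1* and *Ccl24*) and 2 in the adult (*Gas6* and *Cd163*). *Cd163* had no fitted value without adult 1 or without adult 2. *Pf4*, a chemokine of fetal macrophages and platelets, had 14.1, 22.7 and 45.2 CPM in the embryos and 0.630 and 1.77 CPM in the adults, a log2 fold change of 4.50 (SE 0.61, edgeR adjusted p = 5.45e-05), which was 2.90 after the correction for length and GC content, 3.91 without adult 1 and 5.40 without adult 2. *Lyve1*, a hyaluronan receptor of macrophages along vessels and of lymphatic cells, had 2.39 to 8.54 CPM against 0.776 and 0.928 CPM. Its log2 fold change was 2.44 (adjusted p = 0.00393 by edgeR), and without adult 1 it was 2.29 and did not pass. *Ccl24* had 1.25 to 7.11 CPM in the embryos and 0.0242 and 0 CPM in the adults, below the adult floors of 0.0727 and 0.0843 CPM. The size of its change is therefore uncertain. *Gas6*, a ligand of the receptors by which macrophages clear dying cells, was higher in the adult at −2.21 (adjusted p = 2.31e-04 by edgeR). It was −1.90 without adult 1 and −1.98 without embryos 1 and 4, and no longer called in either case. *Cd163* (−3.40, adjusted p = 0.0188 by edgeR) was low throughout, with 0.582 and 0.787 CPM in the adults. Embryo 2 had 0.270 CPM. The other embryos had at most 0.0642 CPM, below the floor of every embryo, and without embryo 2 the log2 fold change was −4.74. The counts that took *Cd163* past the filter came mainly from the adults, so the size of its change is uncertain. *Timd4* had 0 to 0.507 CPM in the embryos, 0 in both adults, and was not tested. Beside the 10 markers, 0 of which were called, single genes of these lists were called in both directions, as were genes in general.

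Of 7 microglial genes 2 were called, both higher in the embryo. Among all tested genes 25.8% were called, and the list was not tested against that share. *Tmem119* had 27.2, 31.4 and 62.4 CPM in its lowest, median and highest embryo and 5.04 and 6.69 CPM in the adults, a log2 fold change of 2.64 (SE 0.40, edgeR adjusted p = 1.15e-04). *Olfml3* had 36.5, 42.5 and 85.4 CPM against 8.85 and 13.4 CPM, a log2 fold change of 2.24 (SE 0.39, edgeR adjusted p = 3.89e-04, and 1.95 and no longer called without adult 1). Both genes are also made outside microglia, and the more restricted microglial genes *P2ry12* and *Siglech* overlapped between stages, with 1.75 to 5.05 and 0.586 to 1.69 CPM in the embryos and 2.89 and 2.31, and 1.65 and 2.31 CPM, in the adults. *Sall1*, a transcription factor, passed on adjusted p in the other direction, with a log2 fold change of −0.81 (adjusted p = 0.0420 by edgeR) and every embryo below both adults. The part of microglia in the result was not tested.

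Some components of complement beyond C1q were higher in the adult. Of 10 genes 4 were called higher there and 0 in the embryo, 5 did not pass on adjusted p, and the median log2 fold change was −1.45. *C1ra* and *C1s1*, the proteases that C1q activates, had log2 fold changes of −4.30 (adjusted p = 1.72e-04 by edgeR) and −5.19 (adjusted p = 2.27e-04). *C1s1* was at 0 in embryos 1, 3 and 4, and reached 0.642 CPM in embryo 7, against 6.33 and 9.62 CPM in the adults. *C3*, the protein on which the cascades converge, had 0 to 1.25 CPM in the embryos and 6.38 and 30.3 CPM in the adults (log2 fold change −5.06, and −3.57 without adult 2). *C4b* followed with −7.38, which was −7.97 without adult 1 and −6.42 without adult 2. RNA of the C1q chains was thus measured at 16.3 CPM or more in every embryo, while *C1ra* reached at most 0.449 CPM in an embryo.

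Antigen presentation separated the stages most widely among the immune lists. Of 11 genes 9 were tested and 6 were called, all higher in the adult, with a median log2 fold change of −4.53. The sum was 9.75, 13.3 and 20.6 CPM in the lowest, median and highest embryo and 181 and 237 CPM in the adults, with *H2-DMa* most abundant in the embryo and *Cd74* in the adult. *Cd74*, the chaperone of class II molecules, had 0.842, 1.16 and 3.11 CPM in the embryos and 64.9 and 86.7 CPM in the adults, a log2 fold change of −5.72 (SE 0.37, edgeR adjusted p = 1.25e-07). The class II genes *H2-Aa* (−5.60), *H2-Ab1* (−5.06) and *H2-Eb1* (−4.63) were called likewise, and every embryo lay below both adults for each. *H2-Eb1* was at −5.13 without adult 1 and −3.91 without adult 2. These 4 genes thus had at most 3.11 CPM in an embryo. Of the 10 macrophage markers 3 had stages that did not overlap, against 59.1% of all tested genes. The 2 lists were not tested against each other. Dendritic and B cells also make these genes, and their part in the result was not tested.

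Genes shared by all leukocytes gave no single direction. Of 10 genes 1 was called, *Ptprc*, which encodes CD45, at 0.594, 0.770 and 1.47 CPM in the embryos and 3.47 and 9.45 CPM in the adults. Its log2 fold change of −2.91 (SE 0.49, edgeR adjusted p = 2.80e-04) was −2.03 (adjusted p = 0.0540) without adult 2 and −0.58 (adjusted p = 0.369) after the correction for length and GC content. *Coro1a* and *Arhgdib*, regulators of the cytoskeleton, had 1.72 (adjusted p = 0.00870) and 1.57 (adjusted p = 0.00530). Without adult 1 they did not pass (adjusted p = 0.131 and 0.103), and without adult 2 they were called, at 2.34 and 2.04. After the correction *Coro1a* passed (1.24, adjusted p = 0.0306) and *Arhgdib* did not (0.73, adjusted p = 0.103). The leukocyte sum, with *Coro1a* most abundant in the embryo and *Lcp1* in the adult, was 206, 265, 144, 144, 129, 127 and 109 CPM in embryos 1 to 7 and 60.7 and 116 CPM in the adults. This order of the embryos, with embryo 2 first, embryo 1 next and embryo 7 last, was that of the summed macrophage markers at both ends. The lysosomal list, 12 genes with 11 tested and *Ctsb* most abundant, summed to 1278, 1553 and 2147 CPM in the lowest, median and highest embryo and 2053 and 2036 CPM in the adults. Of these 1 was called, *Spp1* (osteopontin), at −4.29 (adjusted p = 2.21e-07 by edgeR). Its log2 fold change was −3.45 without adult 1 and −4.84 without adult 2. *Ctss* had −1.47 (adjusted p = 0.00241 by edgeR), and without adult 2 it was −0.99 and did not pass. *Cd68* had 1.32 (adjusted p = 0.0165 by edgeR). Its log2 fold change was 1.41 without adult 1 and 1.21 without adult 2, and it passed in neither fit. After the correction *Ctss* was called, at −2.13, and *Cd68* did not pass (0.13, adjusted p = 0.765).

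Markers of other blood cells were counted as well. Of 12 lymphocyte genes 4 were tested and 0 were called by edgeR, with a summed level of 1.41, 2.34 and 8.20 CPM in the lowest, median and highest embryo and 4.17 and 8.55 CPM in the adults. *Cd79b* was the most abundant of them, *Cd3e* was at 0 in all embryos but embryo 7 and in adult 2, and 1 or 2 lymphocyte genes were called higher in the adult when any single embryo was left out. Of 9 mast cell genes 3 were tested and 0 were called, the sum was 19.8, 27.3 and 37.1 CPM in the embryos and 72.9 and 54.4 CPM in the adults, and most of it was *Kit*, which other cells express too. The mast cell gene *Ms4a2* was at 0 in all embryos but embryo 2 and in adult 1, and *Fcer1a*, the mast cell partner of *Fcer1g*, was at 0 in every embryo and at 0 and 0.0281 CPM in the adults. Of 11 erythroid genes 10 were called higher in the embryo, with *Hbb-y* most abundant there and *Hbb-bs* in the adult, where the sums were 765 and 1982 CPM. That number was 3 without adult 1, 6 without adult 2 and 5 after the correction for length and GC content. Of 10 mesenchymal genes 7 were called higher in the embryo, and the most abundant was *Col3a1* in the embryo and *Col1a2* in the adult. The mesenchymal sum was 747, 1836 and 2568 CPM in the lowest, median and highest embryo and 765 and 493 CPM in the adults. Of 14 pituitary identity genes 3 were called higher in the embryo and 6 in the adult. Their sum was 1608, 2325 and 2900 CPM in the embryos and 151727 and 160162 CPM in the adults, with *Cga* most abundant in the embryo and *Gh* in the adult. The part of these tissues in the levels of the macrophage markers was not tested.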

How the data were processed

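The authors aligned trimmed reads (Trimmomatic 0.39) with STAR 2.7.5b, and the deposited files hold raw counts of read pairs per gene for 7 embryo and 2 adult libraries. Column 4, the strand-specific count, was used. Read pairs assigned to no gene made up 20.0% to 40.3% of the embryo libraries and 16.0% and 16.3% of the adult ones. Genes averaging 5 or more counts were fitted with edgeR 4.0.16 (R 4.3.3; TMM, quasi-likelihood test, common dispersion 0.190, stage as the single term). Correlations used log2(CPM + 0.5) and exact permutation, two-sided (Python 3.11.15, scipy 1.17.1, numpy 2.4.6, pandas 2.3.3, matplotlib 3.10.9). The alternatives were DESeq2 1.42.0, other scalings, filters, fold thresholds, strands, a replicate block, a length and GC correction (splines with 4 degrees of freedom, genes averaging 50 or more counts), and libraries left out. Libraries 1 and 2 without a block, the correction without embryo 2 or without embryos 1 and 4, and correlations with each embryo left out were chosen after seeing the data. The members, and the 18 lists of 181 companion genes, were chosen with earlier results of these data known. Of the lists as first drawn up, 2 genes were removed after the results were seen, and are not reported here. Genes named are the members, genes of the lists (largest called changes and most abundant first) and the 5 genes most like the members over the embryos.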

Additional observations from a re-analysis of the deposited data

Results flagged for a closer look

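In each of 94 values, the highest and lowest of the 7 embryos were compared with the nearest other embryo, and 16 values had an embryo far from the rest. Chance sets an embryo apart in about 1 in 20 such groups. Embryo 2 was far above the other embryos for *Spi1* (13.6 CPM, the others 3.98 to 5.91), *Ctss* (27.2 CPM, the others 11.4 to 17.9), *Arhgdib* (68.3 CPM, the others 23.3 to 38.6), *Plac8* (65.8 CPM, the others 8.20 to 23.0) and *Cd74* (3.11 CPM, the others 0.842 to 1.47). It was also far above them for *Cd163* (0.270 CPM, the others 0 to 0.0642). *Ly6g* was flagged too, with 0.135 CPM in embryo 2 and 0 in the others. That level is below the floors of embryos 1, 4 and 6 (0.220, 0.212 and 0.149 CPM), so it does not set embryo 2 apart from them. In summed CPM, embryo 2 stood apart for the receptors and kinases of the adaptors (176, the others 80.4 to 106), lysosomal genes (2147, the others 1278 to 1636), monocyte genes (70.2, the others 9.23 to 25.1), endothelial genes (872, the others 279 to 496) and genes of neurons and the posterior lobe (344, the others 94.1 to 189). Embryo 1 was far above the others for *Serping1* (57.5 CPM, the others 19.0 to 33.2) and *Folr2* (4.32 CPM, the others 1.58 to 2.74), and embryo 5 for *Ngp* (7.61 CPM, the others 0 to 0.912). In embryo 6 the ratio of *C1qb* to *C1qa* was 2.60, and in the other embryos it was 1.55 to 1.97. None of the 10 markers had an embryo this far from the rest in its own level.

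In the opposite-strand counts, which the comparisons did not use, *Csf1r* had 13.5% of its read pairs of both strands, and the other markers had at most 0.480%.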

How the results depend on the processing

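Each log2 fold change of the 10 markers was taken under 25 alternatives. With no threshold on fold, one of 2 or a test against a fold of 4 it stays that of the main fit, so no sign could change there. Calls with no threshold or one of 2 are the 4 markers that passed on adjusted p. Of these 250 values, 219 kept their direction and their side of the call, 18 were called, and 13 changed sign. For *C1qa* the sign changed with library size alone (−0.049) and with a library left out (−0.057 without adult 1, −0.050 without embryo 2, up to 0.44 without adult 2) and with the length and GC correction (−1.12, −1.29 without embryo 2 and −1.0 without embryos 1 and 4). With that correction it also changed for *C1qb* (−0.32, −0.42 and −0.23) and *C1qc* (−0.10, −0.26 and −0.050), and for *Tyrobp* without embryo 2 (−0.017). Among the other genes named it changed for *Drp2* when single libraries were left out (−0.16 without adult 1, up to 1.15 without adult 2). The cause was not tested. The number of markers called was 0 with the main settings, 4 with no threshold on fold or one of 2, and 0 to 2 with each library left out. Embryos and adults with the same number are different animals, taken at e13.5 and at postnatal week 8. Their deviations had correlations of 0.044 for number 1 and −0.013 for number 2, and every embryo with every adult gave −0.112 to 0.112. With 2 adults the deviations of adult 2 mirror those of adult 1. The range is therefore symmetric by construction, and the correlations are no test of pairing. A block on the number, which keeps libraries 1 and 2 of each stage, called 2 markers (*Fcer1g* 2.69, *Tyrobp* 2.44), as did the same libraries without a block (2), and 5 markers with the block and 4 without it had an adjusted p below 0.05. Genes called numbered 5001, and 9948 with no threshold on fold, 8960 with a threshold of 2, 2634 with at least 10 counts in every library and 1744 when tested against a fold of 4. The last 2 of these settings each called 35 companion genes, against 63 with the main settings. With the median of the markers at 0.58, leaving out each library gave 0.30 to 0.92, and libraries 1 and 2 of each stage gave 1.29 with or without the block. With the length and GC correction the genes called fell for erythroid genes (5, from 10), genes shared by leukocytes (0, from 1) and genes of neurons and the posterior lobe higher in the adult (3, from 4), and rose for lymphocyte genes (1, from 0), lysosomal genes (2, from 1), endothelial genes (4, from 3), monocyte genes (4, from 3), antigen presentation genes (7, from 6), neutrophil genes (8, from 4), resident macrophage genes (5 in the embryo and 3 in the adult, from 3 and 2), myeloid transcription factors (2 in the embryo and 1 in the adult, from 1 and 0) and adaptor receptors and kinases (1 in each stage, from 0). The adult spread rests on 2 libraries, which limits every comparison of stages.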
